A study of Mus musculus with 13 samples.

Results

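The genes of MHC class II antigen presentation were examined in EPLMs, early progenitors of the bone marrow with lymphoid and myeloid potential, of mice that overexpress the transcriptional coactivator OBF1. They are H2-Aa, H2-Ab1, H2-Eb1, Cd74, Ciita, H2-DMa, H2-DMb1, H2-DMb2, H2-Oa and H2-Ob, taken by name with every probe set that the platform annotation gives to 1 of them alone. These are 19 of the 45037 probe sets of the array, and they cover 9 of the 10 genes. H2-DMb1 is read only by probe sets it shares with H2-DMb2. The comparison held 3 WT mice and 3 BCS mice, and each mouse gave the RNA of 1 Affymetrix mouse GeneChip. All were 7-week-old littermates bred from B6CF1 and C57BL/6. BCS mice carry an HA-tagged human OBF1 cDNA, the nuclear p34 isoform, behind an immunoglobulin VH promoter and the Eμ enhancer, while WT mice carry no transgene. These are elements of genes of B lineage cells. The paper adds that they can work in T cells too, and it found the transgenic protein in BCS thymocytes. Which of the independent BCS lines was used for the arrays is not given in the sources used here. EPLMs were sorted from erythrocyte-depleted marrow by surface markers, among them B220+, c-kit+, CD93+ and NK1.1-.

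MHC class II molecules are pairs of an alpha and a beta chain that carry peptides from endosomes to the cell surface, where CD4+ T cells read them. New pairs are held by the invariant chain until proteases cut it down to a short remnant, which the editor DM then exchanges for peptide, and DO restrains DM in B cells and some dendritic cells. Transcription of these genes rests on CIITA, which binds no DNA itself and joins factors bound at the X and Y boxes of their promoters. In the mouse bone marrow, class II is known for dendritic cells, macrophages and B cells past the earliest stages.

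The promoters are shown because they hold the letters that these factors read, and because OBF1 itself acts through the octamer ATGCAAAT. In the RefSeq promoter table (build GRCm38.p6), which gives 250 bases before and 50 after an annotated start, 8 windows belong to 7 of the genes, with 2 windows for H2-DMa. Both strands were searched for GATTGG, the core of the Y box, for GCAAC, a core of the X box, and for the octamer. GATTGG was found in 7 of the 8 windows and in 16.1% of all 32851 windows, and GCAAC in 5 of 8 and in 35.2% of all. Counted on the strand of the gene alone, GCAAC preceded GATTGG by at most 40 bases in 4 of 8 and in 0.298% of all. The octamer was found in 0 of 8 and in 1.74% of all. So rare a word would be missing from most sets of 8 windows, so its absence says nothing on OBF1 binding. Octamer-like letters and bases further upstream were not searched. The lines below show the 60 bases around GATTGG, 5′ to 3′ on the strand of the gene, with GATTGG and GCAAC in capitals. No line reaches the annotated start, which lies 29 to 76 bases further on.
H2-Aa: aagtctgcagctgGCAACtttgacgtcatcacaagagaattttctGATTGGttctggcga
H2-Eb1: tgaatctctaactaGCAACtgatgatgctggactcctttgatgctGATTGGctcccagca
H2-DMb1: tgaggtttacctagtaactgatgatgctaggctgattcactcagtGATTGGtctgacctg
H2-DMb2: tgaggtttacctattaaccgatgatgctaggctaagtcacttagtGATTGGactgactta
H2-Oa: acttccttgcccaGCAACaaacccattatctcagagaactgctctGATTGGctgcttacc
H2-Ob: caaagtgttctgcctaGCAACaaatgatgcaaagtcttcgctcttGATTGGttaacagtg
They lie at chr17:34287858-34287917 (minus strand) for H2-Aa and, on the plus strand, at chr17:34305762-34305821 for H2-Eb1, chr17:34153084-34153143 for H2-DMb1, chr17:34145113-34145172 for H2-DMb2, chr17:34092290-34092349 for H2-Oa and chr17:34238802-34238861 for H2-Ob. In H2-Aa, H2-Eb1, H2-Oa and H2-Ob the cores are 29 to 32 bases apart. The H2-DMb1 and H2-DMb2 lines are alike over most of their length and hold GATTGG without GCAAC. The only GATTGG of H2-DMa lies 199 bases before 1 of its 2 annotated starts. It has no GCAAC in the 40 bases before it, and its line is not shown.

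Intensities are given on the linear scale in which they were deposited, after GCRMA. All 6 arrays have a median of 20, and log2 of the intensity plus 1 was compared with limma over all 45037 probe sets. The words rose and fell are kept for probe sets with a Benjamini-Hochberg adjusted p under 0.05, and SE is the standard error of a log2 change. By this rule 5.49% of all probe sets were called, 2.24% as higher and 3.25% as lower in BCS EPLMs. Intensities of different probe sets are not compared with each other, since probes differ in how brightly they bind. Pairwise correlations of the 6 arrays over probe sets above the median lay between 0.9661 and 0.9899, and no array stood apart. Pou2af1, the mouse gene of OBF1, rose from 5643 ± 2002 (SD, n = 3) to 10655 ± 290 (limma adjusted p = 0.0436). Whether its probe set reads the human transgene is not known. By qPCR, the paper found no endogenous OBF1 RNA in WT EPLMs and a robust increase in BCS EPLMs. The array signal of WT EPLMs, far above the median of 20, thus differs from that qPCR result, and the reason was not tested. Of the sorting genes, Kit and Cd93 did not pass and Ptprc, the gene of B220, had a log2 change of -0.40 that passed. The large preB columns do not follow the probe set names (their mean levels correlated with those of EPLMs with r = 0.0944 across probe sets) and are not used.

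Of the 19 class II probe sets, which belong to 9 of the 10 genes, 2 rose and 2 fell, which is 21.1% beside the 5.49% of all probe sets. When only probe sets above an intensity of 50 on at least 3 arrays were tested, 3 of 16 class II probe sets were called. That share was close to the one of all probe sets so tested, 2922 of 17388. Among the 19, the genotypes did not overlap in 4 probe sets with BCS above and in 3 with BCS below, beside 12.6% and 11.2% of all probe sets. By the brightest probe set of each gene, Ciita rose, H2-DMa and H2-Ob fell, and H2-Aa, H2-Ab1, H2-Eb1, Cd74, H2-DMb2 and H2-Oa did not pass. Both genes that fell encode chains of DM and DO, of which H2-DMb2 and H2-Oa did not pass. Of the 9 probe sets of the presenting chains and the invariant chain, limma called 0, with 4 at an unadjusted p under 0.05, and the methods' t-test called 0, with 0 at an unadjusted p under 0.05.

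**Figure D1:**
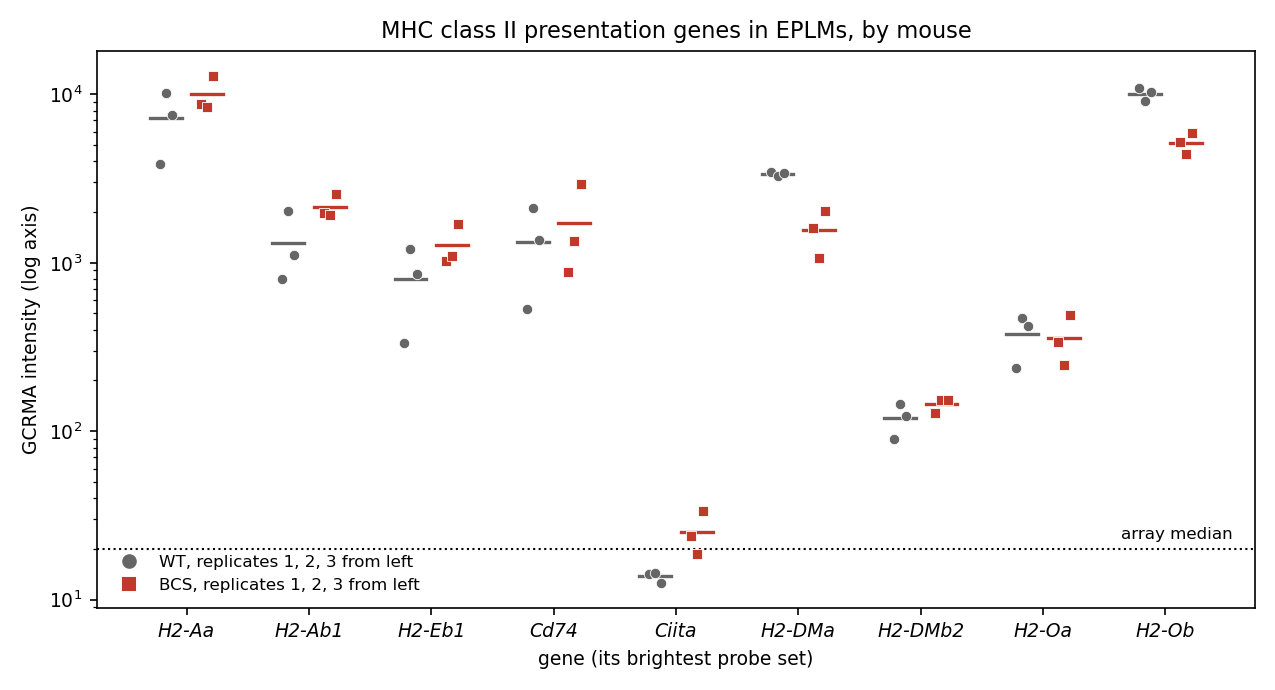
GCRMA intensity (log axis) of the brightest probe set of each class II gene in EPLMs, 1 point per mouse (3 WT in gray, 3 BCS in red) with the mean as a bar, and the array median of 20 dotted. H2-DMa and H2-Ob are separated by genotype with BCS below, Ciita with BCS above at the level of the array median, and the other 6 genes overlap.

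H2-Ob, which encodes the beta chain of DO, had intensities of 10858, 9111 and 10333 in the 3 WT mice and of 5212, 4398 and 5886 in the 3 BCS mice. The genotypes did not overlap, and the spread within each was small beside the gap. H2-Ob fell by 0.97 ± 0.11 SE on the log2 scale (95% interval from -1.23 to -0.72, limma adjusted p = 0.00144). For each class II probe set whose genotypes did not overlap, the exact two-sided permutation test gives p = 0.1, the smallest that 3 mice against 3 allow. A dimmer probe set, which the annotation gives to both H2-Ob and the predicted gene Gm20506, had WT intensities from 125 to 242 and BCS intensities from 86.6 to 111. It also did not overlap and did not pass (-0.84 ± 0.25 SE on the log2 scale, limma adjusted p = 0.104).

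H2-DMa, which encodes the alpha chain of DM, had intensities of 3442, 3281 and 3396 in WT and of 1600.5, 1074 and 2038 in BCS mice. The WT mice were nearly alike, and the BCS mice were all lower but spread 1.9-fold among themselves. H2-DMa fell by 1.15 ± 0.20 SE on the log2 scale (95% interval from -1.61 to -0.69, limma adjusted p = 0.012). Its other probe set went from 142, 183 and 202 to 87.9, 66.8 and 123, again without overlap, and just missed the threshold (-0.94 ± 0.25 SE on the log2 scale, limma adjusted p = 0.0695). It passed when only probe sets above an intensity of 50 on at least 3 arrays were tested, and without BCS replicate 3 (limma adjusted p = 0.0422 and 0.0405).

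The other chain of DM is encoded by the neighboring and nearly identical genes H2-DMb2 and H2-DMb1, and here the probe sets disagreed in direction. The brighter of both shared probe sets had WT intensities of 222, 308 and 338 and BCS intensities of 168, 178 and 212. The other went from 243, 281 and 276 to 182, 163 and 186. Both were lower in each BCS mouse than in any WT mouse, and neither passed (log2 changes -0.62 and -0.59, standard errors 0.21 and 0.16, adjusted p = 0.138 and 0.0784 from limma). By contrast, the 3 probe sets that name H2-DMb2 alone all had higher means in BCS mice, by 0.31 to 0.44 on the log2 scale, and none passed (adjusted p from 0.336 to 0.525 from limma). The brightest of them had 89.5, 146 and 123 in WT and 129, 153 and 154 in BCS mice. Within each array, the log2 value of the brighter shared probe set minus that of this H2-DMb2 probe set was lower in all BCS mice than in any WT mouse. This pair was chosen with both changes known. Since the shared probe sets read both genes, no value can be given for H2-DMb1 itself.

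H2-Oa, which encodes the alpha chain of DO, did not follow H2-Ob. Its intensities were 239, 468 and 420 in WT and 337, 248 and 491 in BCS mice. The genotypes overlapped over most of their range, and the log2 change of -0.06 (SE 0.31, 95% interval from -0.77 to 0.64, limma adjusted p = 0.949) leaves room for a fall or a rise. Its sign turned without WT replicate 2 or 3 or BCS replicate 2 (log2 changes of 0.12, 0.05 and 0.17).

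**Figure D2:**
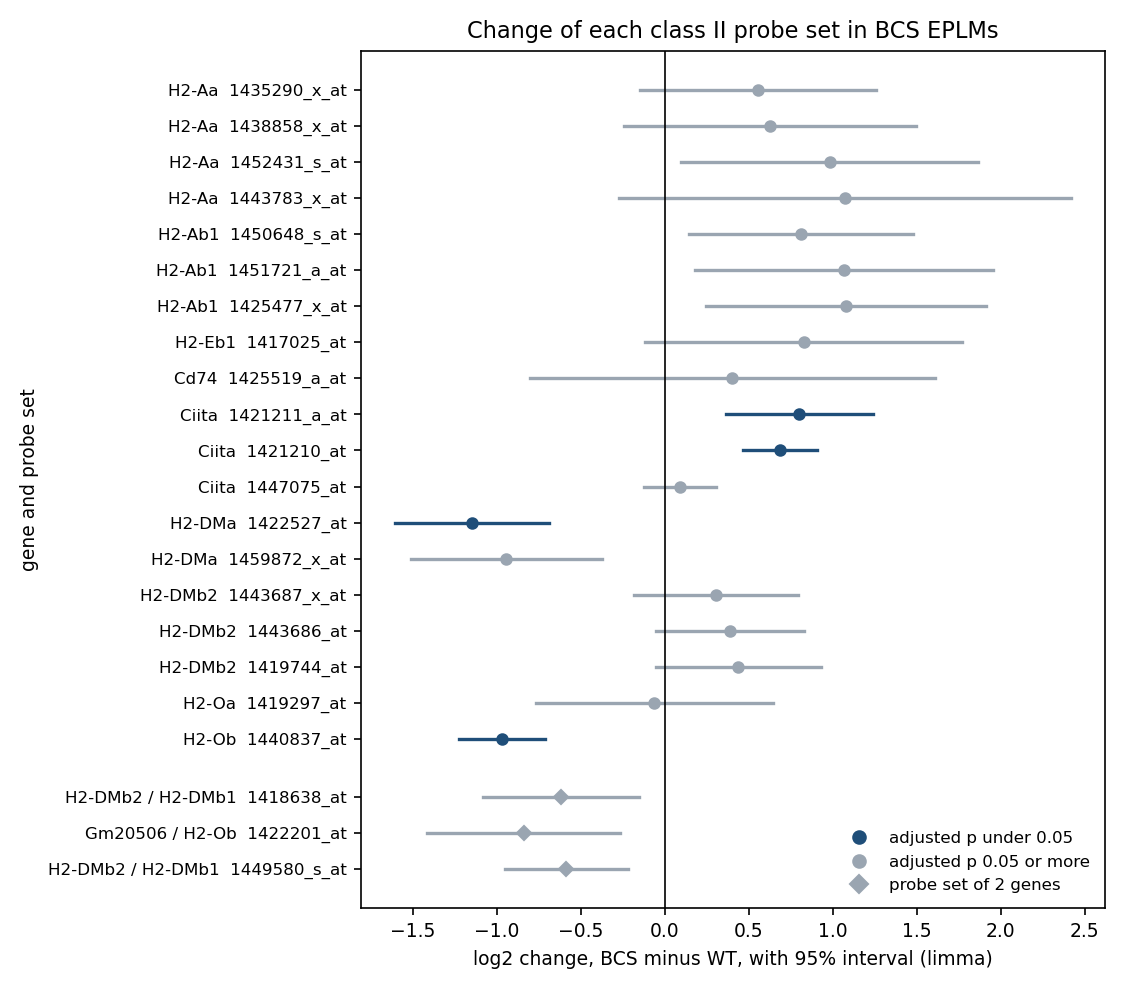
Log2 change of BCS minus WT EPLMs with its 95% interval from limma, for the 19 class II probe sets and for 3 probe sets that the annotation shares between 2 genes (diamonds). The 4 called probe sets (dark) are those of Ciita above 0 and those of H2-DMa and H2-Ob below 0, and the H2-DMb2 probe sets lie on the other side of 0 from those shared with H2-DMb1.

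The presenting chains themselves had higher means in BCS mice with a wide spread, and none passed. H2-Aa, the alpha chain of I-A, had intensities of 3882, 10200 and 7572 in WT and of 8800, 8440 and 12845 in BCS mice on its brightest probe set. Its WT mice thus spanned a 2.6-fold range that took in both lower BCS mice. The log2 change was 0.56 (SE 0.31, 95% interval from -0.15 to 1.26, limma adjusted p = 0.402). Its 3 dimmer probe sets had log2 changes of 0.63, 0.98 and 1.07, and adjusted p over all 4 lay between 0.219 and 0.453 from limma.

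H2-Ab1, the beta chain of I-A, had 798, 2022 and 1110.5 in WT and 1964, 1922 and 2559 in BCS mice. A single WT mouse, replicate 2, reached the BCS range. The log2 change was 0.81 (SE 0.29, 95% interval from 0.14 to 1.48, limma adjusted p = 0.178), and the dimmer probe sets had larger changes, up to 1.08. On the dimmest, from 23.7 to 77.3 in WT and from 80.2 to 101 in BCS mice, the genotypes did not overlap. Without WT replicate 2 all 3 probe sets of H2-Ab1 passed, with log2 changes from 1.18 to 1.53 (limma adjusted p from 0.0124 to 0.0428).

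H2-Eb1, the beta chain of I-E, had 335, 1209 and 856 in WT and 1031, 1099 and 1705 in BCS mice, a log2 change of 0.82 (SE 0.42, 95% interval from -0.12 to 1.77, limma adjusted p = 0.348). Again WT replicate 2 lay among the BCS mice. H2-Ea, the gene of the partner chain, is annotated as a transcribed pseudogene in C57BL/6. The mice also descend from B6CF1, and which alleles of the class II genes each mouse carried is not given in the sources used here. Whether alleles differed between the mice, and with them the binding of the probes, was not tested. Its 3 probe sets were dim in every mouse, the brightest between 34.3 and 42.9, and none passed. H2-Eb2, a further beta chain gene beside H2-Eb1, was dim and did not overlap, with 40.5 to 59.3 in WT and 28.6 to 34.0 in BCS mice (-0.63 ± 0.19 SE on the log2 scale, limma adjusted p = 0.0981).

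Cd74, which encodes the invariant chain, had the widest spread among the brightest probe sets of the 9 genes. Its only probe set had 529, 2116 and 1362 in WT and 886, 1344 and 2947 in BCS mice, a 4.0-fold range within WT and a 3.3-fold range within BCS mice. The genotypes overlapped almost fully, with a log2 change of 0.40 (SE 0.53, 95% interval from -0.81 to 1.61, limma adjusted p = 0.77). Without WT replicate 1 or BCS replicate 3 its sign turned (log2 changes of -0.16 and -0.08).

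The spread had the same shape in all of these genes. In each of the 9 probe sets of H2-Aa, H2-Ab1, H2-Eb1 and Cd74, WT replicate 1 was the lowest and BCS replicate 3 the highest of all 6 mice. Probe sets of 1 gene read the same RNA, so these are 4 genes seen in the same 6 mice and not 9 separate observations. Their spread within genotypes lay between the 93.7th and 99.2nd percentile of all probe sets above the array median. Averaged over the brightest probe sets of the 4 genes and centred on the mean of the 6 mice, the log2 level was -1.22 in WT replicate 1, 0.43 in replicate 2 and -0.18 in replicate 3. In BCS replicates 1, 2 and 3 it was -0.01, 0.14 and 0.84. Without WT replicate 1 the changes of H2-Aa, H2-Ab1 and H2-Eb1 shrank to 0.16, 0.51 and 0.29 on the log2 scale (adjusted p = 0.737, 0.355 and 0.623 from limma).

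**Figure D3:**
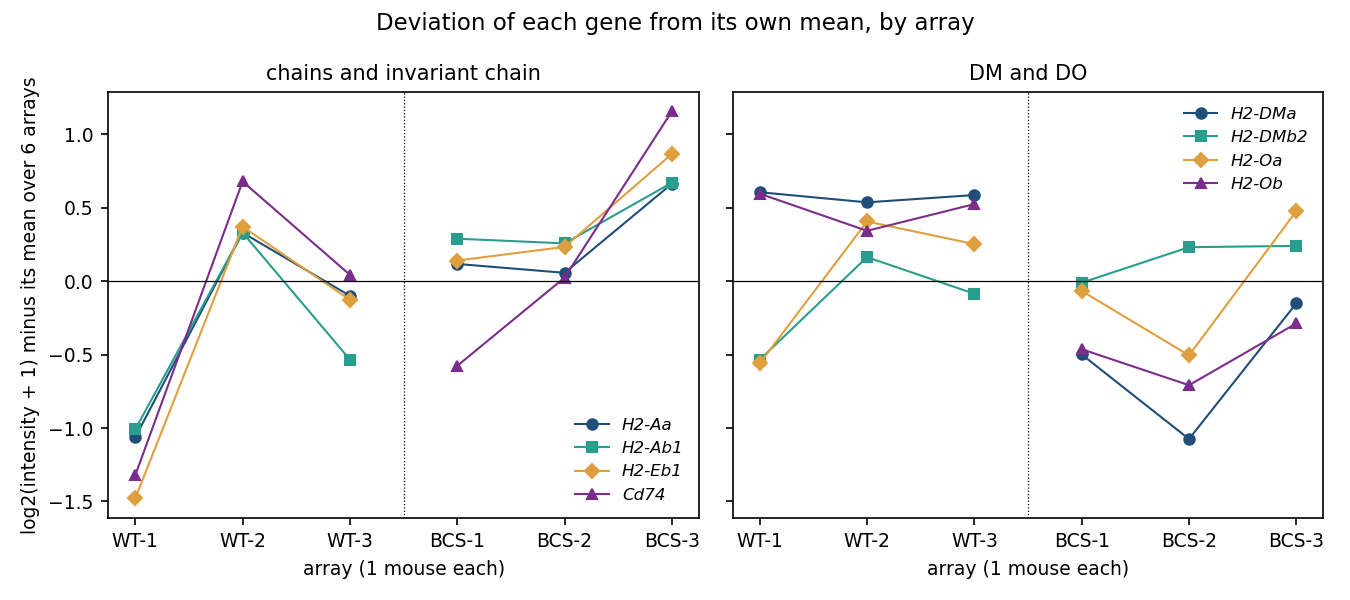
Log2 intensity of the brightest probe set of each gene minus its own mean over the 6 EPLM arrays, by array, with the chains and the invariant chain at left and the genes of DM and DO at right. Lines only link the points of a gene. At left, WT replicate 1 is lowest and BCS replicate 3 highest for each of the 4 genes, and at right H2-DMa and H2-Ob are above 0 in each WT and below 0 in each BCS mouse.

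Measured against this shared profile, H2-Oa differed by a root mean square of 0.44 on the log2 scale over the 6 arrays, and 1.39% of 19267 probe sets above the array median were closer. H2-DMb2 differed by 0.39, with 0.498% closer, and both it and H2-Oa also had WT replicate 1 lowest and BCS replicate 3 highest on the brightest probe set. Ciita differed by 0.51, with 5.34% closer. In WT replicate 2, Ciita lay at -0.33 where the profile lay at 0.43. H2-DMa and H2-Ob, which fell, differed by 1.05 and 1.00, and 95.1% and 93.9% were closer. The 4 genes of the profile had higher means in BCS mice, so genes called lower had to lie far from it. Their distance is therefore no separate result. The measure has no baseline for a gene without a pattern, so a small share of closer probe sets does not by itself show likeness. Outside the 4 genes of the profile, the genes most like it were Apobr, Ltb, Inpp1, Pde5a and Igk, at differences from 0.20 to 0.23. They were picked for likeness to genes that did not pass, so that none of them passed is no separate result.

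Ciita, the transactivator gene, rose from levels below the array median. Its brightest probe set had 14.2, 14.5 and 12.6 in WT and 23.9, 18.7 and 33.4 in BCS mice, so that each WT mouse and BCS replicate 2 lay below the array median of 20. The log2 change was 0.80 (SE 0.19, 95% interval from 0.36 to 1.24, limma adjusted p = 0.0478). A second probe set went from 12.1, 12.6 and 12.0 to 20.5, 20.1 and 20.2, with a log2 change of 0.68 (SE 0.10, limma adjusted p = 0.00424). The mice of a genotype were almost alike on it, with a spread at the 0.447th percentile of the probe sets above the array median. The third probe set stayed between 7.72 and 10.4 in every mouse and did not pass. The call of the brightest probe set was lost with an offset of 16 before log2, with the replicate number as a block, with eBayes without its trend, and when any mouse except BCS replicate 2 was left out (limma adjusted p from 0.0603 to 0.155). The second probe set passed in each of the 13 alternatives it could enter.

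On chromosome 17 the class II genes lie in the order H2-Oa, H2-DMa, H2-DMb2, H2-DMb1, H2-Ob, H2-Ab1, H2-Aa and H2-Eb1 by the reference annotation. Cd74 and Ciita lie on other chromosomes. The genes that fell, H2-DMa and H2-Ob, thus each have a neighbor in the group that did not pass. Between them lie Psmb9, Tap1, Psmb8 and Tap2, the immunoproteasome and peptide transporter genes of MHC class I, with Brd2 between H2-Oa and H2-DMa and Btnl2 beyond the others. None of these 6 passed in limma, with 1 at an unadjusted p under 0.05, and their log2 changes ran from 0.03 for Psmb9 and Btnl2 to 0.36 for Brd2.

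Counted as other pathway genes were 41 measured genes, the 6 between class II genes among them. Of these 41, 2 rose and 10 fell, beside 2.24% and 3.25% of all probe sets. When only probe sets above an intensity of 50 on at least 3 arrays were tested, 3 of 33 pathway genes were higher and 11 lower. Of all 17388 probe sets so tested, 1321 were higher and 1601 lower. Most of the called genes were in the list of antigen and invariant chain processing, endosomal enzymes and the cathepsin inhibitor gene Cst3. In it 7 of 9 were lower and none higher, with a median log2 change of -0.98 beside 0.01 over all probe sets. Ctsh, an aminopeptidase of the lysosome, went from 13141 ± 971 (SD, n = 3) to 3855 ± 686. It fell by 1.78 ± 0.12 SE on the log2 scale (limma adjusted p = 9.69e-05). Ctsl and Ctsb, cathepsins that cut proteins in endosomes, fell by 1.71 (SE 0.15) and 1.67 (SE 0.07), and Ifi30, the thiol reductase GILT, by 1.53 (SE 0.14). Ctss, the protease that cuts the invariant chain in B cells and dendritic cells, went from 23813 ± 994 to 14240 ± 818 (-0.74 ± 0.06 SE on the log2 scale, limma adjusted p = 0.000169). Ctsz and Cst3 made up the 7. All 7 kept their calls in every alternative with limma, while Ctsd had a log2 change of -0.39 (limma adjusted p = 0.085) and Lgmn, the asparaginyl endopeptidase, one of 0.27 (limma adjusted p = 0.325).

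The DNA-bound partners of CIITA at the X and Y boxes did not pass in limma, with 2 of 7 at an unadjusted p under 0.05. All 7 of them, Rfx5, Rfxap, Rfxank, Nfya, Nfyb, Nfyc and Creb1, had higher mean log2 values in BCS mice, by 0.01 for Rfxank to 0.36 for Nfyb, beside 53.1% of all probe sets. Nfyb came closest (0.36 ± 0.10 SE on the log2 scale, limma adjusted p = 0.0869). Of 10 measured regulators of Ciita, 2 rose and 2 fell. Irf4 and Irf8, interferon regulatory factors of B cells and dendritic cells, fell by 1.70 (SE 0.34) and 0.60 (SE 0.07). The B lineage factors Ebf1 and Pax5 rose by 0.95 (SE 0.17) and 1.12 (SE 0.24), the latter from dim levels of 28.7 to 45.1 in WT. Both rises were lost without BCS replicate 2 or 3, and that of Pax5 also without WT replicate 1 or 3 (limma adjusted p from 0.055 to 0.111). From the same arrays and by qPCR, the paper reports both genes as higher in BCS EPLMs. The call of Irf4 was lost without WT replicate 1 or 2 or BCS replicate 1 or 3, and that of Irf8 held in every alternative with limma. Spi1, Spib, Irf1, Prdm1 and the interferon gamma receptor genes Ifngr1 and Ifngr2 did not pass, with log2 changes from -0.18 to 0.25. Of 7 genes of surface turnover and costimulation, only the ligand gene Cd86 was called, which fell by 0.79 (SE 0.18, limma adjusted p = 0.0338) from 69.1 ± 6.15 to 39.6 ± 4.93. Its call was lost when any 1 mouse was left out and with the replicate block. Marchf1, whose product marks surface class II for degradation, did not pass (-0.66, SE 0.28, limma adjusted p = 0.25).

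**Figure D4:**
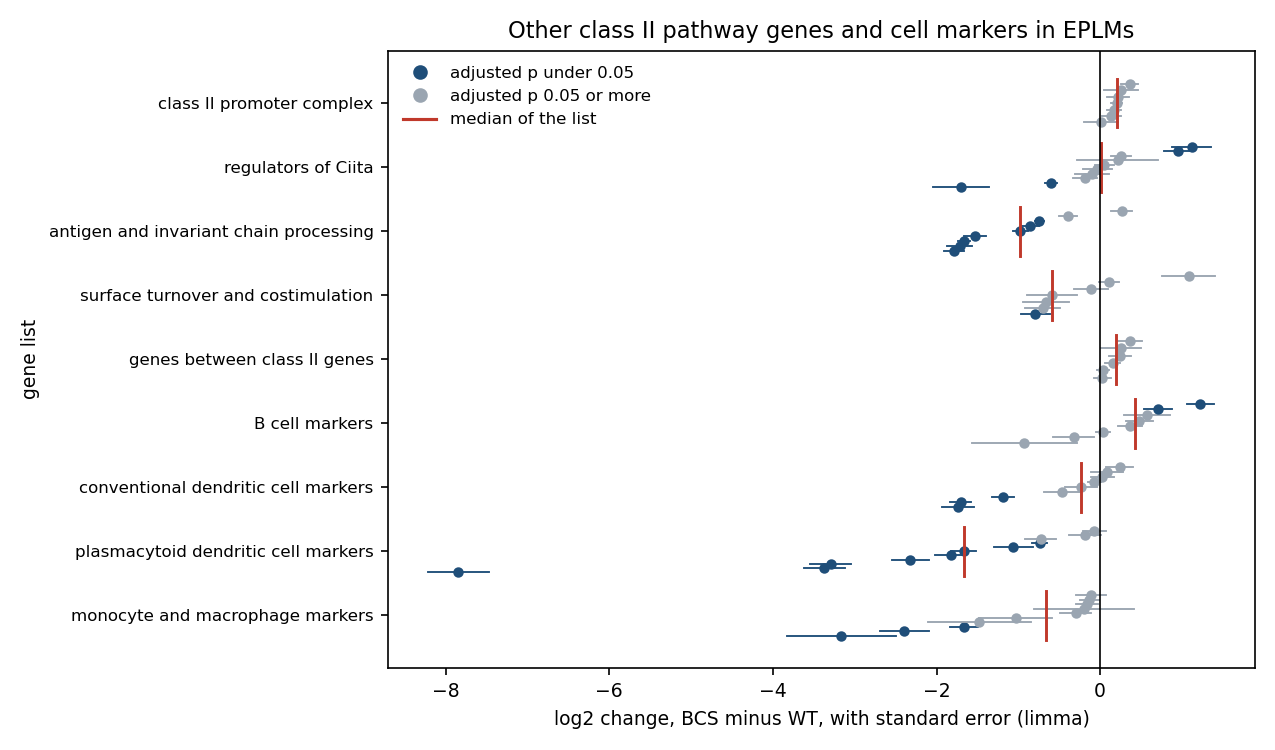
Log2 change of BCS minus WT EPLMs with its standard error from limma for the brightest probe set of each gene, with the median of each list in red. Shown are 4 lists of class II pathway genes, the list of genes between class II genes and 4 lists of cell markers. Called genes are dark. Called below 0 were 7 of 9 processing genes and 8 of 11 plasmacytoid dendritic cell markers, beside 3.25% of all probe sets.

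Markers of other cells that carry class II moved as well. Beside the counts below, 2.24% of all probe sets were called higher and 3.25% lower. Of the 17388 above an intensity of 50 on at least 3 arrays, 1321 were called higher and 1601 lower. In RNA of sorted cells, fewer cells of a type and less RNA per cell cannot be told apart. Among plasmacytoid dendritic cell genes 8 of 11 fell and none rose, and their summed intensity was 51452 to 63354 in WT and 19420 to 27864 in BCS mice. The 4 largest falls were in Klk1, Pacsin1, Ccr9 and Bst2, with log2 changes of -7.84, -3.37, -3.29 and -2.32. Of 10 monocyte and macrophage markers, Ccr2, Csf1r and Cd68 fell, with sums of 6850 to 14497 in WT and 2405 to 6867 in BCS mice. The highest BCS sum thus just passed the lowest WT sum. Cd14, Itgam, Fcgr1 and Ms4a7 had means under 40 in both genotypes. Of 9 markers of conventional dendritic cells, Ccr7, Clec10a and Itgax fell, with sums of 5489 to 6033 and 1928 to 2304, and the defining genes Zbtb46, Xcr1 and Batf3 had means under 40 in both. Of 8 B cell markers, Cd79b and the dim Fcer2a rose and none fell, with sums of 20042 to 32238 and 35331 to 42572, and Cr2 was below the array median throughout. Ms4a1 and Cd22 had lower mean log2 values in BCS mice (log2 changes -0.93 and -0.32, not called), and the other 6 had higher ones. Sums weight markers by the brightness of their probes, and Ighm, which did not pass (limma adjusted p = 0.159), made up 58.4% to 69.0% of the B cell sum. The part of these cells in the class II values was not tested.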

How the data were processed

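The 6 arrays each measured the RNA of EPLMs sorted from a single mouse, 3 WT and 3 BCS. Per the labels and methods, the authors normalized the arrays with GCRMA (version not given) and used Expressionist, and the deposited values are intensities on a linear scale. The 6 EPLM columns hold practically 1 distribution of values, so a further quantile normalization changes little. GCRMA adjusts for background, so sizes of change near the median of 20 depend on that step. The number of arrays limits the precision. Labels state a labeling kit of 1 cycle and the methods 2 cycles.

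BCS and WT were compared without covariates by limma 3.58.1 under R 4.3.3 (lmFit and trended eBayes) on log2 of the deposited intensity plus 1. The 64 control features were left out. Benjamini-Hochberg adjustment ran over all 45037 other probe sets, of which 34945 have 1 gene symbol, 932 several and 9160 none. A gene is represented by its brightest probe set with 1 symbol. Suffixes _s_at and _x_at mark probe sets whose probes can also bind related sequences, and every H2-Aa probe set carries 1 of them. Listed genes without such a probe set, H2-Pa and H2-Pb among them, are not analysed here, and some items are not reported here. The fit was tested on simulated data. The genes and lists were chosen with earlier results of these data known. Named are all probe sets of the 10 genes, up to 4 called genes of each list with the largest change, H2-Ea, H2-Eb2, the sorting genes, and the 5 genes nearest to the mean profile of 4 class II genes. Other members of a list were named after their values were seen. Alternatives were the methods' t-test, robust or untrended eBayes, testing only probe sets above 50 on at least 3 arrays, quantile normalization, centring on brighter probe sets, an offset of 16, the replicate number as a block, the mean of a gene's probe sets, the methods' call rule, and leaving out each array. Same-numbered arrays of both genotypes share only a number by the labels.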

Additional observations from a re-analysis of the deposited data

How the results depend on the processing

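The calls of H2-DMa and H2-Ob on their brightest probe sets held in 13 of 14 alternatives each, every setting with limma, and were lost with the methods' t-test (adjusted p = 0.188 and 0.103). Of 263 values of class II probe sets under an alternative, 241 kept their direction and side of the threshold, 11 lost a call, 5 gained one and 6 turned sign. The signs that turned were those of H2-Oa (0.12 without WT replicate 2, 0.05 without WT replicate 3, 0.17 without BCS replicate 2, from -0.36 to 0.17 over all 6 omissions), Cd74 (-0.16 without WT replicate 1, -0.08 without BCS replicate 3, from -0.16 to 0.84) and the dimmest Ciita probe set (-0.0091 without BCS replicate 2, from -0.0091 to 0.14). None of them was called. With the methods' t-test after adjustment, 267 probe sets passed in place of 2472, and 1 class II probe set in place of 4, 0 class II genes by the brightest probe set in place of 3 and 2 other pathway genes in place of 12. That 1 probe set was the second of Ciita. Of the 9 genes, 3 had an unadjusted p under 0.05 in that t-test. The brightest Ciita probe set lost its call with it (adjusted p = 0.256) and under 8 limma settings. By the methods' rule of an unadjusted p under 0.01 from the t-test with 2-fold medians, 875 probe sets passed (1.94%) and 0 of the class II probe sets. The cause was not tested. Leaving out 1 array gave 1401 to 2241 called probe sets, with 1401 without BCS replicate 2, 1430 without WT replicate 3 and 1591 without BCS replicate 3, and 3 to 6 class II probe sets, 2 to 3 class II genes and 8 to 11 other pathway genes. With the replicate block, 1920 probe sets, 3 class II probe sets, 2 class II genes and 11 pathway genes were called, and same-numbered arrays had correlations of their deviations of -0.0006, 0.0818 and 0.0739, so the numbers were not taken as pairs. Intensities near the array median, as those of Ciita, limit what can be read of a fold.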
